A study of Mus musculus with 2 samples.

Results

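The endothelial genes described here are *Kdr*, *Cldn5*, *Pecam1*, *Cdh5*, *Tek*, *Tie1*, *Flt1*, *Emcn*, *Esam* and *Eng*, taken by name from both arrays together with every probe that carries one of these names. They are 10 of 29924 gene names on the array, and all 10 are among the 20119 genes bright enough to be tested. Both groups were ureters of wildtype NMRI mouse embryos, dissected at E11.5 and cultured on a membrane for 18 h. The treated group received 10 µM IWP-2, a small molecule that blocks PORCN, the acyltransferase needed for WNT secretion, and the control group received its solvent DMSO. Each array held RNA of 1 treated and 1 control pool of ureters with different dyes, so that there were 2 pools per group on 2 arrays. The dye of the treated pools was AlexaFluor647 on replicate 1 and AlexaFluor555 on replicate 2, with the other dye on the controls. The sex of the embryos was not determined, and the embryos behind a pool cannot be separated. The explants were no longer perfused in culture, and a pool holds all cells of the dissected ureter, with its vessels and whatever blood they contained.

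Endothelial cells line blood vessels. They need VEGF, which acts on the receptor KDR (VEGFR2), while the receptor FLT1 binds VEGF without signaling strongly and thereby limits it. Angiopoietins act on TEK (TIE2), with TIE1 as its partner without a ligand of its own, and stabilise vessels. Adhesion between endothelial cells rests on CDH5 (VE-cadherin), PECAM1, ESAM and the tight junction protein CLDN5. *Emcn* encodes a sialomucin of the cell surface, and *Eng* a co-receptor for BMP9 and related ligands. In the brain, WNT signaling in endothelial cells is known to be required for barrier properties that include *Cldn5* expression.

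All 10 genes had a higher signal in the IWP-2-treated pool on both arrays. Two-colour log2 ratios of treated over control had a median over the 10 genes of 0.36 on replicate 1, 0.53 on replicate 2 and 0.46 for the mean of both, against a median of 0.00 for the mean of both over all genes tested. A ratio above 0 on both arrays was found for 28.5% of all genes. The 10 genes were chosen with earlier results of these data known, so an excess over this share is not independent evidence. *Kdr* (1.67-fold) and *Cldn5* (1.57-fold) passed a false discovery rate (FDR) of 0.05 in limma, and 9 of the 10 had an unadjusted p under 0.05. The background shares were 0.611% of genes tested that were higher at FDR 0.05, 1.15% that were lower, and 8.67% that were higher at an unadjusted p under 0.05. With median centring of the arrays in place of loess, 7 genes were higher and 36 lower at FDR 0.05 in limma, against 123 and 232. In pools of whole ureters, a change in the number of endothelial cells and a change in RNA per cell cannot be told apart. The calls of *Kdr* and *Cldn5* at FDR 0.05 depended on the processing. Without background correction, with the scanner software's own normalized signals or with median centring in place of loess, 0 of the 10 genes passed. The same held without the filter on dim probes, with the deposited series table of fold changes or in a separate-channel fit with a dye term. The separate-channel fit does not pair the pools of an array. At an unadjusted p under 0.05, these alternatives in limma gave 8, 8, 5, 9, 4 and 6 of the 10 genes, in the order named. The share of all genes at this p was determined for the main fit only (8.67%), so these counts have no background share.

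**Figure D1:**
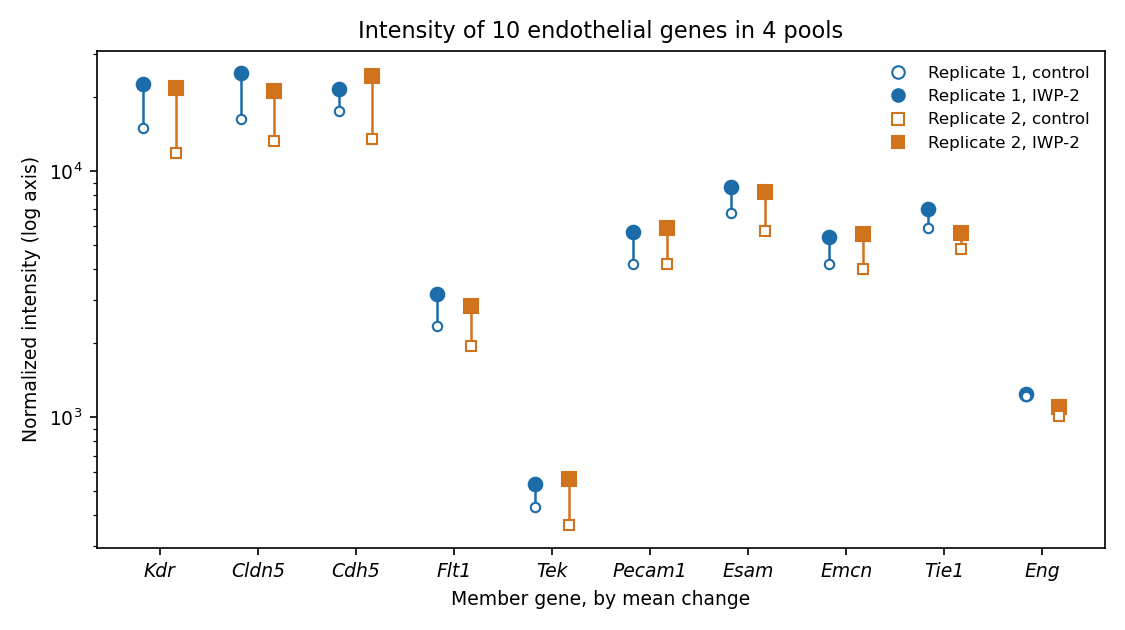
Normalized intensity (log axis) of the probe used for each of the 10 endothelial genes, with open symbols for control pools and filled symbols for IWP-2-treated pools, circles for replicate 1 and squares for replicate 2. A line joins the 2 pools of an array, and the treated pool lies above its control in all 10 genes on both arrays. The height of different genes depends on the probe and is not comparable.

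*Kdr*, the main receptor for VEGF in endothelial cells, had a normalized intensity of 22602 in the treated and 14973 in the control pool on replicate 1. For replicate 2 the values were 21792 and 11832. Both treated pools were brighter than both control pools. The log2 ratio was 0.59 on replicate 1 and 0.88 on replicate 2, a mean of 0.74 ± 0.20 (SD, n = 2) with a 95% interval of 0.47 to 1.01 and an adjusted p of 0.0359 in limma. This was rank 102 of 20119 from the most increased gene. The 4 spots of the probe ran from 0.56 to 0.64 on replicate 1 and from 0.83 to 0.91 on replicate 2, so that the spots of one array did not overlap with those of the other.

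A second *Kdr* probe, A_55_P2094469, gave a smaller difference than the probe described above, A_51_P316553. It read 2121 (treated) against 1735 (control) on replicate 1, and 1809 against 1675 on replicate 2. The log2 ratios of this probe were 0.29 and 0.11, a mean of 0.20 with an adjusted p of 0.543 in a limma fit over probes. The probes thus differed by 0.30 on replicate 1 and 0.77 on replicate 2, and a difference between probes was not tested. Averaging them gave a change of 0.47 for *Kdr* with an adjusted p of 0.0557 in limma. They lie on the minus strand of chromosome 5, with starts 1086 bases apart in the mm9 positions of the array files. Their sequences are shown because the size of the *Kdr* change depends on which of them is read. For each, the first 30 of 60 bases are given.
Kdr A_51_P316553 (chr5:76329309-76329368): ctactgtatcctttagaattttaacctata
Kdr A_55_P2094469 (chr5:76330395-76330454): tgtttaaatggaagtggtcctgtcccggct

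*Cldn5*, which encodes the claudin that seals endothelial tight junctions, changed by nearly the same amount on both arrays. It read 25002 (treated) against 16253 (control) on replicate 1, and 21100 against 13233 on replicate 2. The treated pools lay above the control pools without overlap. The log2 ratios were 0.62 and 0.67, a mean of 0.65 ± 0.04 (SD, n = 2) with a 95% interval of 0.41 to 0.88 and an adjusted p of 0.0347 in limma. All spots lay between 0.62 and 0.63 on replicate 1 and between 0.66 and 0.69 on replicate 2, and the gene ranked 161 of 20119 from the most increased. *Cldn5* is measured by 1 probe on chromosome 16, here with its first 30 bases, so that no second probe checks the value.
Cldn5 A_51_P189814 (chr16:18778046-18778105, plus strand, mm9): tcctactgagatcctgggggcactagatgc

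Among the VEGF receptors, *Flt1* had a mean ratio of 0.49 on the probe used and did not pass FDR 0.05. The probe used for this gene, A_55_P2166282, had intensities of 3175 in the treated and 2345 in the control pool on replicate 1, and of 2829 against 1945 on replicate 2. Its log2 ratios were 0.44 and 0.54, a mean of 0.49 ± 0.07 (SD, n = 2) with an adjusted p of 0.0773 in limma. Another *Flt1* probe, A_51_P398723, read 2180 against 1622 and 2543 against 1494, which gave 0.43 and 0.77. With both probes averaged, *Flt1* had a change of 0.54 and an adjusted p of 0.0476 in limma. The starts of both probes are 73081 bases apart on chromosome 5, and the array annotates them to different *Flt1* transcripts. Their average thus need not stand for a single transcript. A further *Flt1* probe, A_52_P405145, was not well above background in either group and gave 0.04 on both arrays, so no change is given for it.

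Neither receptor of the angiopoietin pathway passed FDR 0.05. *Tek* had intensities of 537 in the treated and 433 in the control pool on replicate 1, and of 560 against 365 on replicate 2. Its log2 ratios were 0.31 and 0.62, a mean of 0.47 ± 0.22 (SD, n = 2; adjusted p 0.127 in limma). *Tie1* read 7050 against 5872 on replicate 1 and 5605 against 4825 on replicate 2. Here the treated pool of replicate 2 was dimmer than the control pool of replicate 1, so the groups overlapped across arrays. The mean change of *Tie1* was 0.24 ± 0.03 (SD, n = 2) with a 95% interval of 0.0049 to 0.48 and an adjusted p of 0.362 in limma. The probes of these related kinases are shown with the bases that are identical between them in capitals, as placed without gaps at the offset with most identities. They shared 39 of 57 overlapping bases (68.4%), with a longest identical run of 8, and whether RNA of one gene binds the probe of the other was not tested.
Tek A_55_P2262136 (chr4:94540624-94540683, plus strand, mm9): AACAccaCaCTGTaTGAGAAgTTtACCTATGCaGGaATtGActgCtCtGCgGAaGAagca
Tie1 A_51_P177171 (chr4:118144132-118144191, minus strand, mm9): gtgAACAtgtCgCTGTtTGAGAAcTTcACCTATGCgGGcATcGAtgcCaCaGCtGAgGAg

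The other adhesion genes, *Cdh5*, *Pecam1* and *Esam*, did not pass FDR 0.05. *Cdh5*, the cadherin of endothelial junctions, read 21636 in the treated and 17623 in the control pool on replicate 1, and 24382 against 13581 on replicate 2. Its ratios of 0.30 and 0.84 were the farthest apart of the 10 genes, with a mean of 0.57 ± 0.39 (SD, n = 2; adjusted p 0.137 in limma). *Pecam1*, which is also expressed by platelets and leukocytes, read 5685 against 4198 and 5878 against 4197. Its ratios were 0.44 and 0.49, a mean of 0.46 ± 0.03 (SD, n = 2; adjusted p 0.0840 in limma). *Esam*, an immunoglobulin-like adhesion molecule that platelets carry too, read 8627 against 6782 and 8219 against 5704, with a mean change of 0.44 ± 0.13 (SD, n = 2; adjusted p 0.115 in limma). In these 3 genes each treated pool was brighter than each control pool.

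Of the remaining surface proteins, *Emcn* had a mean ratio near that of *Esam*, and *Eng* the smallest of the 10 genes. *Emcn* read 5425 in the treated and 4210 in the control pool on replicate 1, and 5587 against 4005 on replicate 2, a mean change of 0.42 ± 0.08 (SD, n = 2; adjusted p 0.115 in limma). *Eng*, which is expressed by mesenchymal cells as well as endothelium, read 1249 against 1223 and 1107 against 1013. Its ratios were 0.03 and 0.13, a mean of 0.08 ± 0.07 (SD, n = 2) with a 95% interval of -0.16 to 0.32 and an adjusted p of 0.893 in limma. The treated pool of replicate 2 was dimmer than the control pool of replicate 1. On replicate 1, 1 spot of *Eng* was marked as an outlier and 3 were used.

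**Figure D2:**
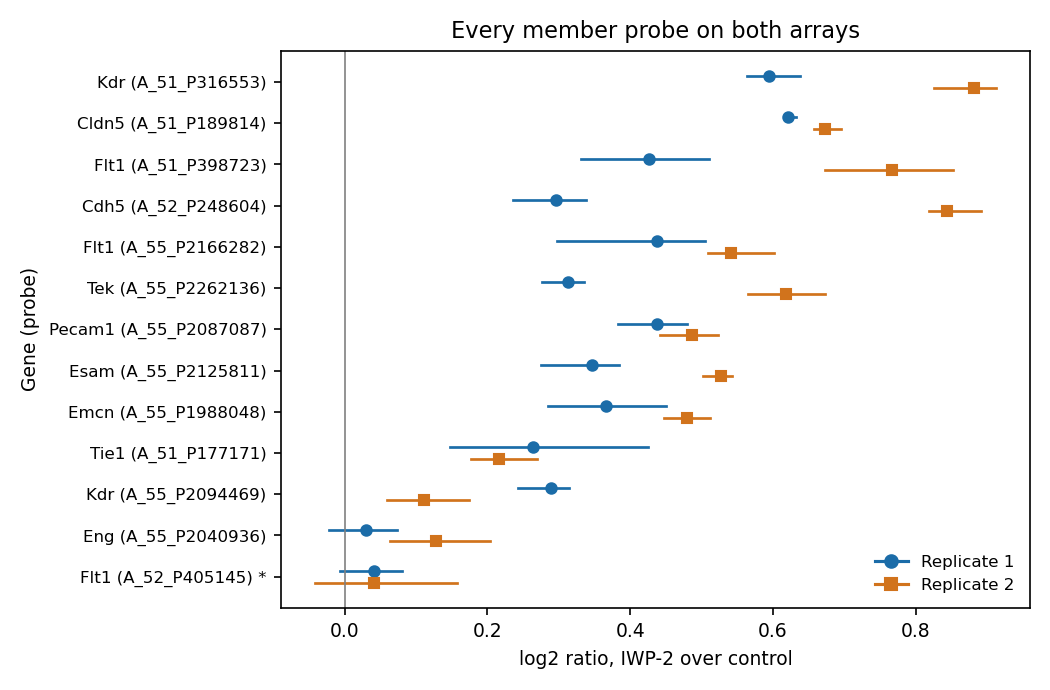
Log2 ratio of IWP-2 over control for the 13 probes of the 10 endothelial genes, with circles for replicate 1, squares for replicate 2, and lines from the lowest to the highest spot of the probe. The asterisk marks the *Flt1* probe that was not above background. All 12 other probes lie above 0 on both arrays, and the second *Kdr* probe lies near *Tie1* and *Eng*.

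The 12 probes above background were all higher in the treated pool on both arrays, and in 11 of them every spot used was above 0 on both. The exception was the *Eng* probe, with spots from -0.02 to 0.07 on replicate 1. The share of all probes with every spot above 0 was not determined. Spots of a probe are repeats within an array and not further pools. In 8 of the 10 genes both treated pools were brighter than both control pools, and *Tie1* and *Eng* were the others. This was so for 14.7% of all genes tested. Intensities were normalized within and not between arrays, so that the brightness of an array enters this count. In order of the mean, *Kdr* and *Cldn5* led and *Tie1* and *Eng* came last. The 6 genes between them, from *Cdh5* at 0.57 to *Emcn* at 0.42, lay closer to each other than the SD of *Cdh5* between arrays, and no difference between genes was tested. On replicate 2 the ratio exceeded that of replicate 1 in all genes but *Tie1*. This order of the arrays depended on the normalization, since median centring in place of loess gave a median over the 10 genes of 0.48 on replicate 1 and 0.38 on replicate 2, where the median of all genes tested lay at 0.11 and -0.14.

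**Figure D3:**
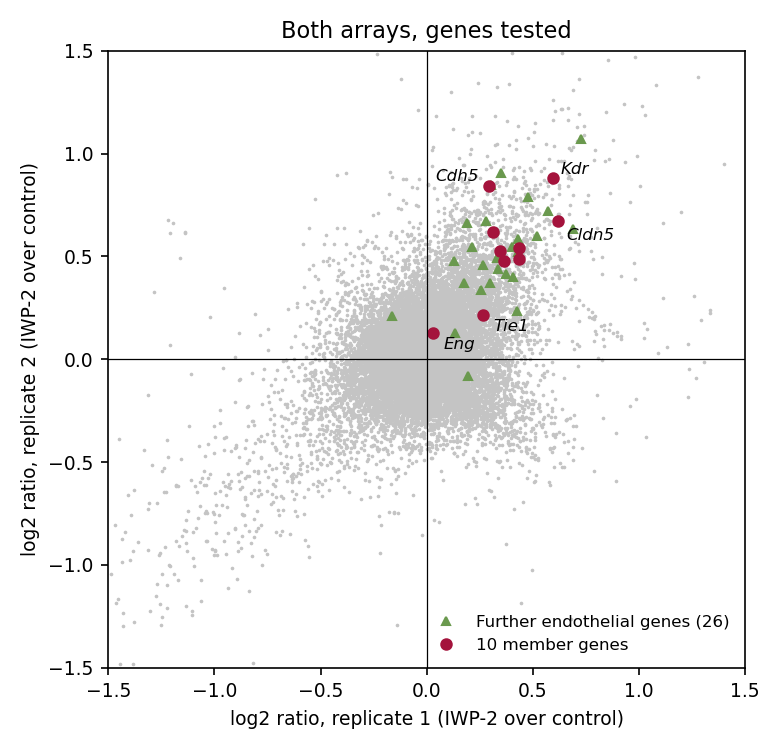
Log2 ratio of IWP-2 over control on replicate 1 (x axis) against replicate 2 (y axis) for all genes tested in grey, 26 further endothelial genes as green triangles and the 10 endothelial genes as red circles. The red circles all lie in the upper right quadrant, with *Kdr* and *Cldn5* farthest to the right and *Cdh5* high on replicate 2 alone. A total of 65 genes lie beyond the axis limits of 1.5.

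A filter on intensity and fold change, modelled on the study's methods, was passed by none of these genes. The change had to reach 2-fold on both arrays and the brighter channel an intensity of 100, and 0.0756% of 14549 bright genes passed it as higher. *Tek* was too dim for this filter in the scanner software's processed signals, and the other 9 genes were bright enough. At 1.5-fold, *Kdr* and *Cldn5* passed, 2 of 10 genes against 0.502% of the bright genes. In these processed signals *Kdr* was higher 1.54-fold on replicate 1 and 1.81-fold on replicate 2, and *Cldn5* 1.52-fold and 1.60-fold. *Cdh5* was higher 1.21-fold and 1.79-fold and thus missed this fold on replicate 1.

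Of the ligands and other receptors of both pathways, *Ptprb* alone passed FDR 0.05 in limma, 1 of 11 genes tested. *Ptprb* encodes VE-PTP, the endothelial phosphatase that acts on TEK, KDR and CDH5. It rose by 0.67 and 1.03 on the arrays, a mean of 0.85 ± 0.25 (SD, n = 2; adjusted p 0.0282 in limma). The TEK agonist *Angpt1* had ratios of 0.41 and 0.82 (adjusted p 0.0781 in limma). The VEGF co-receptors *Nrp1* and *Nrp2* had means of 0.14 and 0.37, with an adjusted p of 0.694 and 0.183 in limma. *Vegfa*, the main ligand of KDR, read 0.18 on replicate 1 and -0.17 on replicate 2, and so had no common direction. *Pgf*, a ligand of FLT1, read -0.42 and -0.59 (adjusted p 0.0788 in limma). In all, 7 of the 11 were higher and 2 lower on both arrays, with a median of 0.15. *Angpt4* was too dim to be tested, and *Vegfd* is not named on the array, which lists its older name *Figf*. Below 0 on both arrays were 27.5% of all genes.

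Further endothelial genes were also mostly higher, 24 of 26 on both arrays with a median of 0.41 and none lower on both. Of these, 3 passed FDR 0.05 in limma. *Sox17*, a transcription factor of arterial endothelium, rose by 0.90 ± 0.24 (SD, n = 2; adjusted p 0.0231 in limma). *Nos3*, the endothelial nitric oxide synthase, rose by 0.66 ± 0.04 (SD, n = 2; adjusted p 0.0330 in limma), and the sphingosine phosphate receptor *S1pr1* by 0.65 ± 0.10 (SD, n = 2; adjusted p 0.0388 in limma). The secreted factor *Egfl7* and the transcription factor *Ets1* had means of 0.47 and 0.39. *Cd34* and *Calcrl* had ratios of opposite sign on the arrays. *Etv2* was too dim to be tested. This list was likewise chosen with earlier results of these data known.

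Among 16 genes of arterial, venous and tip cells, 2 passed FDR 0.05 in limma. *Esm1*, a marker of tip cells that VEGF is known to induce, rose by 1.01 on replicate 1 and 1.23 on replicate 2, a mean of 1.12 ± 0.15 (SD, n = 2; adjusted p 0.00834 in limma). The chemokine receptor *Cxcr4* rose by 0.67 ± 0.17 (SD, n = 2; adjusted p 0.0416 in limma), and its ligand *Cxcl12* read 0.14 and 0.38. On both arrays 10 of the genes were higher and 4 lower, with a median of 0.28. The lower ones, *Efnb2*, *Ephb4*, *Hey2* and *Apln*, had means between -0.31 and -0.06, and none passed the test. Of 4 lymphatic genes tested, 0 passed FDR 0.05 in limma and 1 had an unadjusted p under 0.05. Their median was 0.12, with means of 0.15 for the lymphatic VEGF receptor *Flt4*, 0.27 for *Lyve1* and 0.08 for *Pdpn*. These 3 were higher on both arrays, while *Prox1* read 0.14 on replicate 1 and -0.20 on replicate 2. Over all genes tested, 2699 of 20119 had an unadjusted p under 0.05 in limma in either direction.

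**Figure D4:**
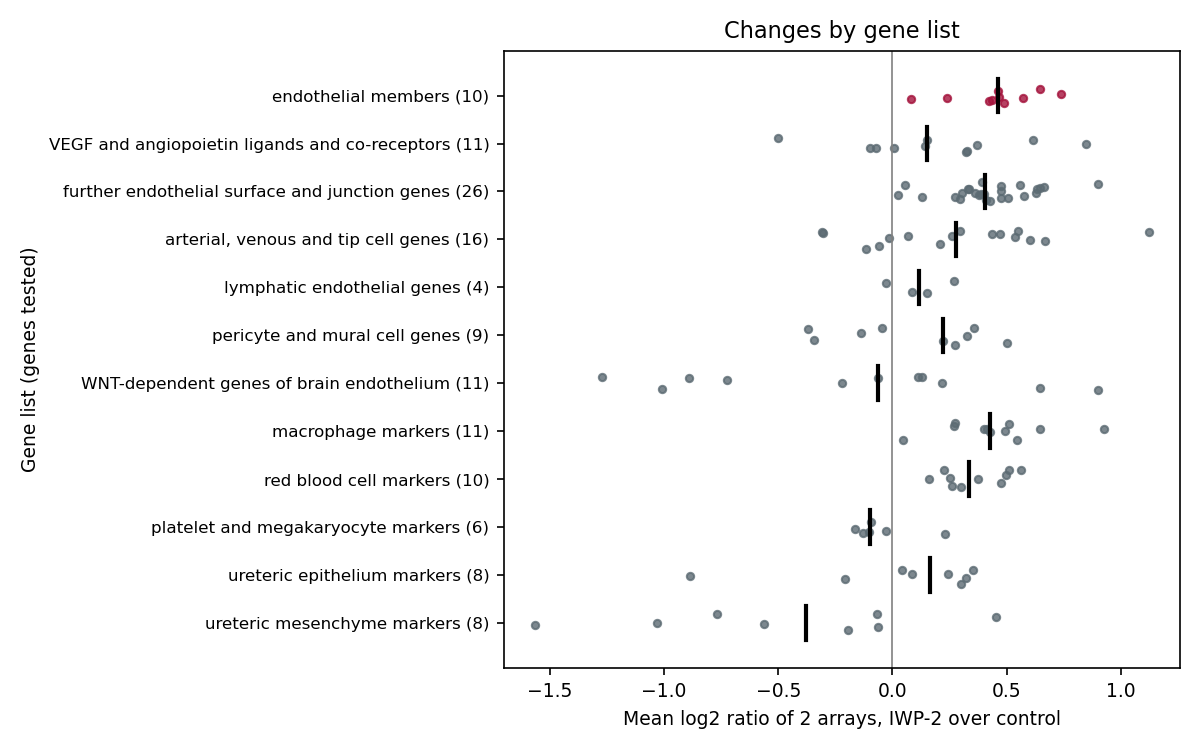
Mean log2 ratio of both arrays (x axis, IWP-2 over control) for each tested gene of the 10 endothelial genes (red) and of 11 companion lists (grey), with the number tested in brackets and a black bar at the median. The bars of the endothelial, further endothelial and macrophage lists lie at 0.46, 0.41 and 0.43, and that of the ureteric mesenchyme at -0.38.

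In the genes known to depend on WNT in brain endothelium, changes went both ways. *Cldn5* and *Sox17* rose, as given above. *Apcdd1* fell by 1.25 on replicate 1 and 1.29 on replicate 2 (adjusted p 0.00414 in limma), *Lef1* by 0.82 and 0.95 (adjusted p 0.0137 in limma), and *Tnfrsf19* by 0.81 and 0.64 (adjusted p 0.0292 in limma). *Axin2*, a feedback inhibitor and common readout of the pathway, had ratios of -1.38 and -0.64 and an adjusted p of 0.0502 in limma. These 4 genes are not restricted to endothelium. The glucose transporter *Slc2a1* read -0.12 and 0.34, and the fenestration gene *Plvap* read 0.14 and 0.13. Thus 2 of 11 genes were higher and 3 lower at FDR 0.05 in limma, and the median was -0.06. This median takes no account of whether WNT raises or lowers a gene.

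Macrophage and red blood cell markers were also mostly higher in the treated pools. Of 11 macrophage markers, 10 were higher on both arrays and 1 rose at FDR 0.05 in limma, *Adgre1* (F4/80) with 0.64 and 1.21 (adjusted p 0.0409 in limma). *Aif1* had a mean of 0.65 (adjusted p 0.0546 in limma), the colony-stimulating factor receptor *Csf1r* one of 0.27, and *Itgam* read 0.33 and -0.24. The median of the macrophage markers was 0.43, and their summed normalized intensity was 99733 to 113574 in the treated and 75411 to 89038 in the control pools. Such a sum is weighted to the brightest probes and is comparable between the pools of an array but not between lists. Of 10 red blood cell markers, 7 were higher on both arrays, with 0 past FDR 0.05 and 5 with an unadjusted p under 0.05 in limma. Over all genes tested, 2699 of 20119 had such an unadjusted p in either direction. The globin genes *Hba-a1*, *Hbb-y*, *Hba-x* and *Hbb-bh1* had means of 0.37, 0.50, 0.51 and 0.56. The median of these markers was 0.10 on replicate 1 and 0.58 on replicate 2, and their sum was 603386 to 897460 in the treated and 428392 to 705954 in the control pools. The markers tested had passed the filter on dim probes, so that none of them was at 0 follows from that filter. The part of macrophages or blood in the endothelial result was not tested.

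Of 6 platelet markers, 1 was higher and 2 lower on both arrays, with a median of -0.10 and 0 at FDR 0.05 or at an unadjusted p under 0.05 in limma. The chemokine *Pf4* had a mean of 0.23, *Ppbp* of -0.13 and the integrin *Itga2b* of -0.16. Pericyte and mural cell genes were divided, with 5 of 9 higher and 4 lower on both arrays. Of them 0 passed FDR 0.05 in limma, where 6 had an unadjusted p under 0.05. The counts at an unadjusted p in these lists take either direction, and 2699 of 20119 genes tested had such a p. *Pdgfrb* read 0.38 and 0.63, while *Rgs5* read -0.47 and -0.27 and *Notch3* -0.41 and -0.28. Markers of both tissues of the ureter were among the genes tested. Of 8 epithelial markers, 4 were higher and 2 lower on both arrays with a median of 0.16 and 0 past FDR 0.05 in limma, where 4 had an unadjusted p under 0.05. *Shh* read -1.33 and -0.44, the keratins *Krt8* and *Krt18* had means of 0.04 and 0.09, and the receptor *Ret* had a mean of 0.35. Of 8 mesenchymal markers, 1 was higher and 6 lower on both arrays. Among them *Foxf1*, *Tbx18* and *Tcf21* fell, by 1.57, 1.03 and 0.77 (adjusted p 0.00389, 0.0126 and 0.0247 in limma), and the median was -0.38. The collagen genes *Col1a1* and *Col3a1* both had a mean of -0.07, and *Twist1*, the marker that was higher on both arrays, read 0.18 and 0.73. A ratio of pools states the share of a transcript in the RNA, so that these changes are relative to the other genes on the array. The calls of the 7 higher companion genes (*Ptprb*, *Sox17*, *Nos3*, *S1pr1*, *Esm1*, *Cxcr4* and *Adgre1*) depended on the processing like those of *Kdr* and *Cldn5*. Without background correction 4 of them passed FDR 0.05 in limma, and with processed signals and without the filter on dim probes only *Esm1*. With the series table only *Nos3* passed, and with median centring or the separate-channel fit with a dye term 0. Of the 6 lower genes (*Apcdd1*, *Lef1*, *Tnfrsf19*, *Foxf1*, *Tbx18* and *Tcf21*), 6, 4, 4, 1, 1 and 0 passed in these settings.

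Sequence before the transcription start was available for 7 of the 10 genes, from RefSeq on GRCm38.p6, with the names *Cdh5*, *Esam* and *Pecam1* not matched. The windows of 250 bases before and 50 after the start were searched on both strands for CAGGAA and CCGGAA, core motifs of the ETS factors that are known for endothelial transcription, and for CTTTGA, the core motif of the TCF/LEF factors of the WNT pathway. One of the ETS motifs was found in 5 of 7 windows (*Emcn*, *Eng*, *Kdr*, *Tek* and *Tie1*), and in 41.4% of all 32851 promoters of the table. CTTTGA was found in 0 of the 7 windows and in 16.0% of all promoters. The 250 bases before the start are shown for both genes that passed FDR 0.05, with the motif matches in capitals. The single match is CCGGAA on the opposite strand of *Kdr*, starting 153 bases before the start, and *Cldn5* held no match. A match describes letters and not binding.
Kdr promoter (chr5:75978456-75978705, minus strand, GRCm38.p6): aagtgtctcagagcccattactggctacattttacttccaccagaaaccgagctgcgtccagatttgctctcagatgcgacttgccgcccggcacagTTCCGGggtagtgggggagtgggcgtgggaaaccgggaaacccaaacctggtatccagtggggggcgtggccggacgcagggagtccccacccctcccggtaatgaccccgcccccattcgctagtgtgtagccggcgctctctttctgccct
Cldn5 promoter (chr16:18776597-18776846, plus strand, GRCm38.p6): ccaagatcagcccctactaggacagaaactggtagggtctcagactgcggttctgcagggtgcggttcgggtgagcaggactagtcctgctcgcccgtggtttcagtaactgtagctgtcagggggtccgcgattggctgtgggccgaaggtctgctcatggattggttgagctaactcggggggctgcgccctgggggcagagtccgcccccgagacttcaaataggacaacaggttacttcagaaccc

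Genes with a pattern most like that of *Kdr*, by Euclidean distance in the 2 log2 ratios, were *Egln3*, *Pcdh8* and *Cpne8*, and 24 genes lay within 0.1. The nearest to *Cldn5* were *1110032F04Rik*, *Insm2* and *Mstn*, with 26 genes within 0.1. With 2 arrays, closeness of this kind is common and carries no statement on shared function.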

How the data were processed

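Total RNA of pooled ureters was amplified, labelled with AlexaFluor555 or AlexaFluor647 and hybridised in pairs to two-colour Agilent arrays of 60-base probes with 4 spots each. The deposited scanner files hold raw and processed intensity values with flags (other columns) from Feature Extraction 12.2.0.7 per the file headers, and 10.7.3.1 per the submitters' processing notes. The deposited series table holds a score, the fold change with a sign for its direction, and was used as an alternative. A single scan (1) read both arrays. Of the spots, 68.6% to 70.7% were well above background, 4.51% and 3.30% were outliers and 0 were saturated.

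Analyses used R 4.3.3, limma 3.58.1 and data.table (version 1.17.8). Mean intensities were corrected by normexp (offset 50) and normalized by loess within arrays. Outlier spots were dropped and spots of a probe averaged. Probes stayed in where a share above 0.5 of the spots exceeded background clearly in the same group on both arrays, and the brightest such probe stood for a gene. Normalized intensities of the channels were derived from the same log2 ratio and mean brightness. The limma fit (lmFit, eBayes) used the dye swap as a sign, with 1 residual degree of freedom per gene, 5.52 prior degrees of freedom and Benjamini-Hochberg adjustment over 20119 genes. The number of arrays limits the precision. The spread behind a p-value or interval combines that of the gene between 2 pairs of pools with a prior from all genes tested. By its degrees of freedom the prior has the greater weight, so these values do not measure the gene's own spread alone. Scripts were tested on simulated data. Members and gene lists were chosen with earlier results of these data known. The text names all members, and of each companion list the genes past FDR 0.05, the 2 brightest and the 2 of largest change, and others as examples chosen after their values were seen.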

Additional observations from a re-analysis of the deposited data

How the results depend on the processing

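The mean changes of the 10 endothelial genes kept their direction under the alternatives run, while the calls at FDR 0.05 did not hold under most of them. All 70 mean changes under the alternatives other than the dye term kept their sign, and the median over the 10 genes ran from 0.44 to 0.48 against 0.46. Part of this count was fixed in advance. Without the filter on dim probes and with the trend and robust prior, the means of the 10 genes equalled those of the main fit. With the mean over all kept probes this also held for the 8 genes with 1 probe. On 1 array alone the median was 0.53 without replicate 1 and 0.36 without replicate 2, with no test. The count of these genes past FDR 0.05 in limma was 2, and it was 0 without background correction, with processed signals, with median centring, without the filter on dim probes, with the series table and in a separate-channel fit with a dye term, where the array could not be added as a block. At an unadjusted p under 0.05 these fits gave 8, 8, 5, 9, 4 and 6 of the 10 genes in limma. The share of all genes at this unadjusted p was not determined for these fits. Over all genes, 123 were higher and 232 lower, against 74 and 176 without background correction, 75 and 171 with processed signals, 7 and 36 with median centring, 21 and 98 without the filter, 1038 and 1322 with the series table and 0 and 0 with the dye term. The adjusted p of *Kdr* in limma ran from 0.0143 to 0.650 and that of *Cldn5* from 0.0153 to 0.740 over the alternatives. With the mean over all kept probes, 2 of the 10 genes passed (*Cldn5* and *Flt1*), and over all genes 224 were higher and 278 lower. With a trend and a robust prior 3 passed (*Kdr*, *Cldn5* and *Pecam1*, the last with an adjusted p of 0.0469 in limma), and 226 were higher and 290 lower. The filter on fold and intensity was passed by 0 of these genes at 2-fold and by 2 at 1.5-fold. The cause of these differences was not tested. By the series table, 9 of the 10 genes were above 0 on both arrays, and *Eng* was above 0 on 1 array. The fold changes of that table are coarse, since *Emcn*, *Esam* and *Pecam1* share the same mean of 0.431969. Tied values of this kind enter its fit and its counts. Median centring left the median of all genes at 0.11 on replicate 1 and -0.14 on replicate 2 in probes kept, against -0.01 and 0.02. The fit on ratios is itself paired, as each ratio sets the pools of an array against each other, and the separate-channel fit has no such pairing.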
